A study of Mus musculus with 6 samples.

Results

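Wif1 and the other secreted antagonists of the Wnt pathway were followed in sorted CD45- cells of RANK-/- and RANK+/+ mammary tumors. The set held 9 genes, of the 36799 genes or transcripts on the array: the secreted antagonists Wif1, Sfrp1, Sfrp2, Sfrp4, Frzb, Dkk2, Dkk3 and Notum, and Axin2 as a readout of the pathway. The genes were found on the array through their RefSeq accessions, which gave 10 probes, 1 for each gene and 2 for Axin2. Of the 9 genes, 8 passed the filter on dim probes and Frzb did not. The genes were chosen with the ratios of this same comparison known, so their values are given as a description, without a test.

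The tumors came from MMTV-PyMT mice, in which a mammary tumor virus promoter drives the polyomavirus middle T oncogene in the mammary epithelium, and which were RANK+/+ or RANK-/-. RANK, encoded by Tnfrsf11a, is the receptor for the cytokine RANKL, and the deletion was carried by the donor mouse, not by 1 cell type of it. Late carcinoma cells were placed in the mammary fat pad of syngeneic C57BL/6 mice, and live CD45- cells of the tumors that grew were sorted. Both genotypes share the oncogene, the strain and the host. CD45 marks leukocytes, so the gate removes these but keeps tumor cells and also fibroblasts, pericytes and endothelial cells, which can be the host's own. The labels give neither the age of the mice nor the number of tumors behind each genotype's RNAs. The spread given here may therefore be technical in part.

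Each array received 1 RNA of each genotype, labelled with Cy5 or Cy3. The 6 arrays formed 3 pairs of RNAs, each hybridized to a technical replicate array A and B. Cy5 labelled the RANK-/- RNA of pair 1 but the RANK+/+ RNAs of pairs 2 and 3, so dye arrangement and pair 1 cannot be told apart. Of 55681 gene probes, between 52.0% and 58.9% rose well above background in each channel of each array. Ratios of arrays A and B correlated across genes with Pearson r from 0.973 to 0.983, whereas ratios of different pairs correlated with r of -0.28, 0.18 and -0.08. Values below are normalized log2 signals of 1 channel (levels) or log2 ratios of RANK-/- over RANK+/+ (differences), with arrays A and B averaged and the SD taken over n = 3 pairs.

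The deleted gene went against its label. The level of Tnfrsf11a was 13.55, 13.36 and 13.07 in the channels labelled RANK-/- of pairs 1, 2 and 3, and 11.52, 12.21 and 11.32 in the channels labelled RANK+/+. Its log2 ratio was thus 2.03, 1.15 and 1.76 (mean 1.65 ± 0.45). Whether this probe lies inside the deleted part of the gene is not given in the sources used here. All directions below rest on the labels as they stand, and each RNA is named by its label.

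Wnt ligands are secreted glycoproteins that bind Frizzled receptors together with the co-receptors Lrp5 and Lrp6. Receptor binding stops the degradation of beta-catenin, which then enters the nucleus and works with Tcf and Lef factors to raise the transcription of target genes. Secreted antagonists act outside the cell. Wif1 and the Sfrp proteins, among them Frzb, bind Wnt ligands themselves, the Dkk proteins classically bind Lrp5 and Lrp6, and Notum removes the lipid that a Wnt ligand needs to bind its receptor. Axin2 is part of the complex that degrades beta-catenin and is itself a target gene, which makes its transcript a widely used readout of canonical Wnt signalling. In the mammary gland, Wnt signalling is known for its part in the growth of ducts and in the basal cell layer.

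Promoter sequences are shown for a pair of members, that of the antagonist with the lowest ratio and that of the pathway readout, to set the letters of a target gene beside those of an inhibitor. They are the 250 bases before the annotated transcription start, 5′ to 3′, from RefSeq on build GRCm38.p6, both on the plus strand. The window of Wif1 is chr10:121033754-121034003 and that of Axin2 is chr11:108920099-108920348.
Wif1: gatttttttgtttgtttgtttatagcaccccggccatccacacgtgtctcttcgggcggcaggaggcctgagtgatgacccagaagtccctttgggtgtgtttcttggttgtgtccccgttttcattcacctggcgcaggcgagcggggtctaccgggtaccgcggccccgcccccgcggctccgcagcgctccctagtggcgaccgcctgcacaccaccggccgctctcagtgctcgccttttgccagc
Axin2: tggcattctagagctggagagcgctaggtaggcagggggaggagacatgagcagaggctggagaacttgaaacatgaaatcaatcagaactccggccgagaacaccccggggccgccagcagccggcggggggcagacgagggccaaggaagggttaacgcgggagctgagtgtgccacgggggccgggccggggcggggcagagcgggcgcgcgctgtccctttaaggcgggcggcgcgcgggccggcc
The Tcf/Lef core motif CTTTGAT was searched on both strands in the reference windows, which run from 250 bases before to 50 bases after the start, and would have been written in capitals. It occurred in 0 of the 5 windows matched to the set (Wif1, Sfrp2, Frzb, Dkk2 and Axin2), and 4.29% of the 27025 genes with a window held it. Both stretches were rich in G and C, at 62.8% of the bases for Wif1 and 69.2% for Axin2, with 21 and 24 CpG dinucleotides. A match of letters is a description, and none in this window says nothing of sites elsewhere.

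Wif1 was lower in the channel labelled RANK-/- in every pair, and of the 8 members that passed the filter it was the one below 0 in all 3 pairs. Its level was 11.19, 9.89 and 10.76 in the RANK-/- RNAs of pairs 1, 2 and 3, against 12.71, 12.41 and 13.47 in the RANK+/+ RNAs. The highest RANK-/- RNA lay 1.22 below the lowest RANK+/+ RNA, so the labelled genotypes did not overlap. The log2 ratios were -1.51, -2.52 and -2.71, which are 2.86-, 5.74- and 6.56-fold lower signals. The mean was -2.25 ± 0.64 (SD, n = 3; SE 0.37), or 4.75-fold lower.

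The measurement of Wif1 was technically close. Both channels read well above background on all 6 arrays for its single probe, and technical replicate arrays differed by at most 0.10 in log2 ratio. Its mean ratio was the third lowest of the 22513 genes tested. The study ranked genes by a rank product, which combines the rank of a gene's ratio in each pair and gives a proportion of false positives (pfp). The pfp of Wif1, 0.0272, comes from the same ratios by which it was chosen and is no independent test of it. At a pfp under 0.05 the rank product called 0.0133% of genes lower and 0.0178% higher in the channel labelled RANK-/-. In limma, fitted over all genes with Benjamini-Hochberg adjustment, 0% of genes passed an adjusted p of 0.05, and 646 genes had an unadjusted p under 0.05. The pfp of Wif1 was 0.128 without pair 1, 0.225 without pair 2 and 0.353 without pair 3.

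Set against the background, 9.65% of all genes were below 0 in all 3 pairs and 9.96% above 0. The 3 levels per labelled genotype did not overlap in 3.78% of genes that were lower and 3.66% that were higher in RANK-/-. A ratio at least 2-fold lower in all 3 pairs was found in 0.0489% of genes, which are 11, and Wif1 was one of them. The others with a gene name were Tchh, Gin1, Krt27, Galnt14, Dsp, Gjb6, Ly6d, Alox5ap and Armcx2. Wif1 was chosen for this pattern, so nothing is read from these shares.

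**Figure D1:**
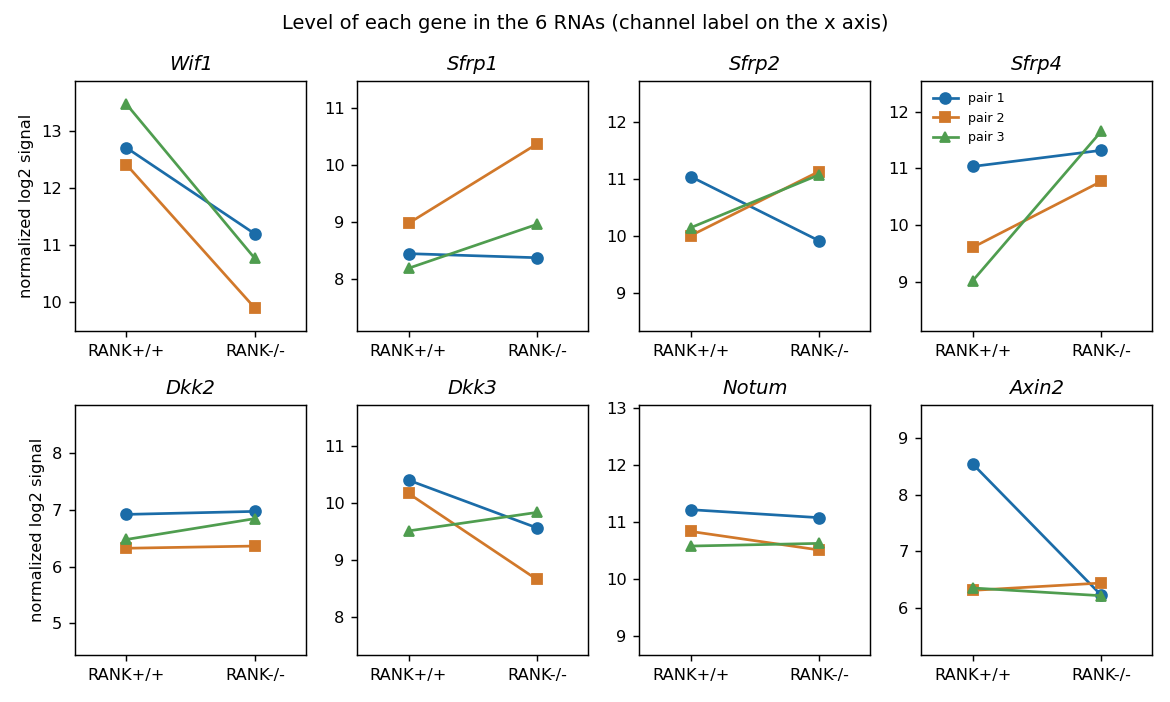
Normalized log2 signal of 8 genes (y axis, the same span of log2 units in every panel) in the RNA labelled RANK+/+ and the RNA labelled RANK-/- (x axis), with a line for each of the 3 pairs and arrays A and B averaged. The 3 lines of Wif1 fall from 12.41 or higher to 11.19 or lower, and Axin2 has 1 RNA, RANK+/+ of pair 1, at 8.54 while the other 5 lie between 6.22 and 6.44.

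The genes whose levels followed those of Wif1 most closely over the 6 RNAs were Gjb6, Armcx2, Ly6d, Raet1e and Ttyh1. Likeness was measured as the root mean square difference of levels after each gene's own mean was removed, among 14675 genes with a RefSeq symbol. Gjb6, which encodes the gap junction protein connexin 30, lay nearest, at 0.437 log2 units (Pearson r 0.991 over the 6 RNAs). Its level was 7.08, 6.31 and 6.55 in the RANK-/- RNAs and 8.10, 7.76 and 8.56 in the RANK+/+ RNAs, with the same order of RNAs within each labelled genotype as Wif1. The RANK-/- levels of Gjb6 in pairs 2 and 3 were near those of Dkk2 (6.32 to 6.97), which was close to background. Armcx2 was at 0.491 (r 0.969), and Ly6d, a surface protein of squamous and basal epithelium, at 0.501 (r 0.951). Raet1e, a ligand of the natural killer cell receptor NKG2D, was at 0.520 (r 0.907), and the membrane protein Ttyh1 at 0.545 (r 0.923). These 6 RNAs share their pairs and arrays, and the genes were picked by likeness, so the r values are descriptions.

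The other members did not follow Wif1. Their root mean square difference from it ran from 0.989 for Dkk3 to 1.99 for Sfrp4, with r from -0.77 (Sfrp1) to 0.62 (Dkk3).

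Markers of hair follicle and epidermis had medians below 0 in every pair, as Wif1 did. Of the 11 genes of that list 7 were tested, with a median ratio of -1.13 in pair 1, -0.83 in pair 2 and -1.12 in pair 3. All genes tested had medians of 0.015, -0.012 and 0.0013. Of the 7, 4 were below 0 in all pairs, where 9.65% of all genes were, 0 were above, and 0 passed limma. Krt71 (-0.83, 0.80 and -1.17) and Lor (0.48, -0.92 and -0.27) turned sign, as did Sbsn. Tchh, a structural protein of the hair root sheath, had ratios of -6.01, -1.85 and -1.12, and the root sheath keratin Krt27 had -2.33, -1.12 and -1.75. In the RANK-/- channel both were well above background on 3 of 6 arrays, and Krt28 on 2 of 6. Ratios of these genes are therefore in part set against background signal. Tchh, Krt27 and Krt28 passed the filter on dim probes only through the RANK+/+ channel, where they were higher. Their direction was thus in part set by the filter, and nothing is read from the medians or from the count beside 9.65%. The epidermal genes Krt10 and Sbsn, the members of the list with the highest mean level, had -0.36, -0.81 and -1.50, and -1.13, -0.17 and 0.71. The summed signal of the list on the log2 scale ran from 10.94 to 11.37 in the RANK-/- RNAs and from 11.39 to 13.57 in the RANK+/+ RNAs, the highest being RANK+/+ of pair 1. Ivl was not well above background on any array (0), and Dsg3, Krt1 and Krt25 were so in 2 of 12 array channels each. The sum in the RANK+/+ RNA of pair 1 was carried by Tchh (level 12.59), Krt28 (11.29) and Sbsn (11.25), each highest there. The rest peaked elsewhere. Krt27 (9.01) and Krt10 (9.21) were highest in the RANK+/+ RNA of pair 3. Lor (7.36) was highest in the RANK-/- RNA of pair 1 and Krt71 (8.22) in that of pair 2. The part of these cells in the Wif1 ratio was not tested, and in sorted cells in bulk fewer cells of a type and less RNA per cell cannot be told apart.

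Sfrp4 was higher in the channel labelled RANK-/- in every pair. Its level was 11.32, 10.77 and 11.65 in the RANK-/- RNAs and 11.03, 9.61 and 9.02 in the RANK+/+ RNAs. The lowest RANK-/- RNA, of pair 2, lay below the RANK+/+ RNA of pair 1, so the labelled genotypes overlapped. The log2 ratios were 0.28, 1.16 and 2.63, with a mean of 1.36 ± 1.18, and the ratio of pair 1 was small beside that of pair 3.

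Sfrp1 and Sfrp2 each turned sign between pairs. Sfrp1, a Wnt-binding protein with a Frizzled-like domain, had levels of 8.37, 10.37 and 8.95 in the RANK-/- RNAs and 8.44, 8.97 and 8.18 in the RANK+/+ RNAs. A single RNA, RANK-/- of pair 2, stood above the rest. Its ratios were -0.07, 1.39 and 0.77 (mean 0.70 ± 0.74). Sfrp2, of the same family, had levels of 9.91, 11.13 and 11.07 in the RANK-/- RNAs and 11.04, 10.001 and 10.14 in the RANK+/+ RNAs. Its ratios were -1.13, 1.13 and 0.93, so that its mean of 0.31 ± 1.25 was smaller than its spread. With a dye term in the fit, or without pair 2 or pair 3, the mean of Sfrp2 was at or below 0 (-0.050, -0.099 and -0.00025).

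Fibroblast markers were read beside the Sfrp genes, which fibroblasts are known to express. All 12 genes of the fibroblast list were well above background and tested. Their median ratio was 0.05, 0.78 and 1.68 in pairs 1, 2 and 3, the same order of pairs as for Sfrp4. Of the 12, 5 were above 0 in all pairs (9.96% of all genes were) and 0 below, and 10 were at least 2-fold higher in pair 3 (4.91% of all genes were). Postn (0.10, -0.71 and 0.90) and Thy1 (0.56, -0.29 and 1.18) were below 0 in pair 2. Lum, which encodes the matrix proteoglycan lumican, had ratios of -0.23, 1.04 and 2.33, the signs of Sfrp2 in each pair. Of the 12 markers 5 had these signs, Lum among them, and the rest did not. The chains of type I collagen, Col1a1 and Col1a2, had 0.68, 0.30 and 1.94, and 0.61, 0.85 and 2.37. The summed signal of the list on the log2 scale ran from 17.26 to 17.94 in the RANK-/- RNAs and from 15.90 to 17.31 in the RANK+/+ RNAs, the lowest being RANK+/+ of pair 3, where Sfrp4 was also lowest. The part of fibroblast content in the Sfrp ratios was not tested.

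**Figure D2:**
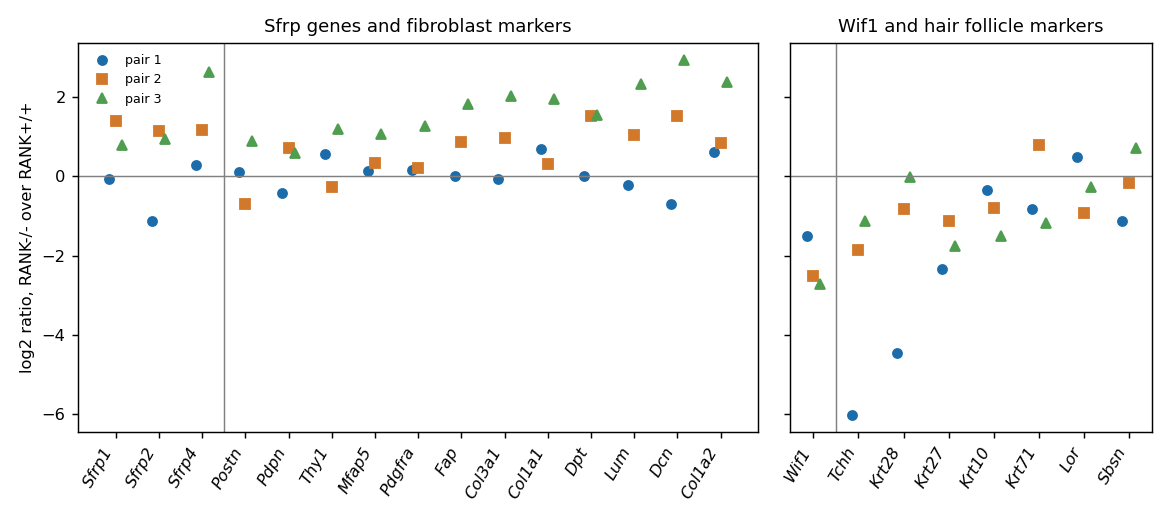
Log2 ratio of RANK-/- over RANK+/+ (y axis) by pair for Sfrp1, Sfrp2 and Sfrp4 left of the vertical line beside the 12 fibroblast markers (left panel), and for Wif1 beside the 7 tested hair follicle and epidermis markers (right panel). The median of the fibroblast markers is 0.05 in pair 1, where they run from -0.71 (Dcn) to 0.68 (Col1a1), and 1.68 in pair 3. Tchh reaches -6.01 in pair 1, with a RANK-/- signal well above background on 3 of 6 arrays.

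Other lineages in the gate did not share this order. The median ratio of the 10 luminal epithelium markers was 0.38, -0.51 and 0.73, that of the 10 basal myoepithelium markers 0.17, -0.06 and 0.03, that of the 6 pericyte markers 0.84, -0.66 and 0.61, and that of the 10 endothelium markers 0.01, -0.32 and 0.56. The medians were 1.44, -0.19 and 0.32 for 6 of 8 cartilage and bone markers, 0.62, -0.28 and 0.14 for 5 of 6 Schwann cell markers, and 0.02, -0.08 and 0.59 for 3 of 7 adipocyte markers. Of 12 leukocyte markers 8 were tested, with medians of -0.27, 0.15 and 0.13. Ptprc, which encodes CD45, was tested with ratios of -0.93, 0.10 and 0.14. The B cell gene Cd79a and the fat cell genes Adipoq and Plin1 were well above background on 0 arrays.

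Dkk3 was lower in the RANK-/- channel of pairs 1 and 2 and higher in that of pair 3. Dkk3 is the divergent member of its family, and does not bind Lrp5 or Lrp6 in the way Dkk1 does. Its level was 9.57, 8.66 and 9.84 in the RANK-/- RNAs and 10.41, 10.17 and 9.52 in the RANK+/+ RNAs, with overlap between the labelled genotypes. The ratios were -0.84, -1.51 and 0.32, and the mean of -0.68 ± 0.93 was smaller than the spread.

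Dkk2 was close to background throughout. Its level was 6.97, 6.36 and 6.84 in the RANK-/- RNAs and 6.92, 6.32 and 6.48 in the RANK+/+ RNAs, and the first were well above background on 6 arrays, the second on 5. The ratios of 0.05, 0.04 and 0.37 were all above 0, with a mean of 0.15 ± 0.19. Technical replicate arrays differed by up to 0.20, which is more than the ratio in pairs 1 and 2, and with Agilent's processed signals or arrays A alone the ratios were above 0 in 2 of the 3 pairs.

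Notum, the enzyme that removes the Wnt lipid, varied least among the members with a clear signal. Its level was 11.08, 10.51 and 10.63 in the RANK-/- RNAs and 11.22, 10.84 and 10.58 in the RANK+/+ RNAs. The ratios were -0.14, -0.33 and 0.05, with a mean of -0.14 ± 0.19. The levels of the labelled genotypes overlapped, and none of the 6 RNAs stood apart.

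Frzb, another Wnt-binding protein of the Sfrp family, did not rise well above background in either channel on any array (0 of 6). Its probe read 6.09, 6.01 and 6.05 in the RANK-/- RNAs and 5.97, 6.08 and 5.95 in the RANK+/+ RNAs, which is background signal, so no fold is given. The transcript was not detectable by this probe.

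**Figure D3:**
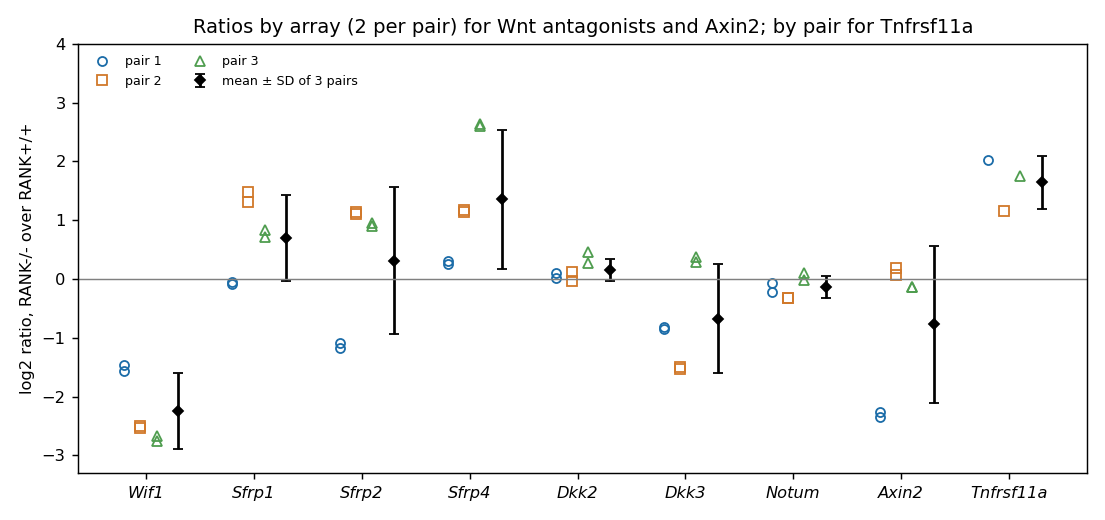
Log2 ratio of RANK-/- over RANK+/+ (y axis) for the 8 genes that passed the filter, with 1 open symbol for each of the 2 arrays of a pair, and for Tnfrsf11a with 1 symbol a pair. Black diamonds and bars are the mean and SD of 3 pairs. Wif1 lies below 0 on every array, the SD exceeds the size of the mean for Sfrp1, Sfrp2, Dkk2, Dkk3, Notum and Axin2, and Tnfrsf11a lies above 0 (1.15 to 2.03).

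Axin2, the readout, was higher in 1 RNA and near background in the rest. Its level was 6.23, 6.44 and 6.22 in the RANK-/- RNAs and 8.54, 6.31 and 6.36 in the RANK+/+ RNAs. The RANK+/+ RNA of pair 1 stood 2 log2 units or more above each of the other 5 RNAs, and those 5 lay within 6.22 to 6.44. The ratios were -2.31, 0.13 and -0.14, with a mean of -0.77 ± 1.34. Without pair 1 the mean was -0.0034. The RANK-/- channel was well above background on 4 arrays and the RANK+/+ channel on 5. Both arrays of a pair were so in pair 2 for RANK-/-, and in pairs 1 and 3 for RANK+/+. Axin2 thus passed the filter on dim probes only through the RANK+/+ channel, the higher one in pair 1. Its direction in pair 1 was in part set by the filter.

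The second Axin2 probe gave the same picture at lower signal. It read 6.17, 6.05 and 6.02 in the RANK-/- RNAs and 7.05, 6.03 and 6.02 in the RANK+/+ RNAs, with ratios of -0.88, 0.02 and -0.01. It was well above background only in the RANK+/+ channel of pair 1, on both arrays, and so did not pass the filter. In pairs 2 and 3, where Wif1 was 5.74- and 6.56-fold lower in the channel labelled RANK-/-, the Axin2 ratios of 0.13 and -0.14 were of opposite sign and the levels lay close to background.

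Other target genes of beta-catenin were compared with Axin2 pair by pair. Of 19 genes on the target list 17 were tested, and their median ratio was -0.44, 0.12 and -0.46 in pairs 1, 2 and 3. In pair 1, 6 of the 17 (35.3%) were at least 2-fold lower in the channel labelled RANK-/-, where 2.84% of all genes tested were. Some genes of the list also stand in other pathway lists. The 6 were Tnfrsf19, Apcdd1, Nkd1, Sp5, Znrf3 and Mmp7. Of these, Sp5 passed the filter on dim probes only through the RANK+/+ channel, so its place in the count was in part set by the filter. The same threshold was passed by 2 of the 17 (11.8%) in pair 2 and 3 (17.6%) in pair 3, where 2.37% and 3.01% of all genes passed it. At least 2-fold higher were 1, 2 and 0 of the 17 in pairs 1, 2 and 3, beside 3.66%, 2.45% and 4.91% of all genes. In all 3 pairs 4 of the 17 were below 0 (Bmp4, Lgr5, Mmp7 and Myc) and 0 above, beside 9.65% and 9.96% of all genes.

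Several of these genes are feedback inhibitors of the pathway. Nkd1, which binds Dishevelled, had levels of 7.59, 7.46 and 7.46 in the RANK-/- RNAs and 9.87, 6.98 and 7.69 in the RANK+/+ RNAs. Apcdd1, a membrane-bound inhibitor of Wnt signalling, had ratios of -2.30, 0.67 and -0.22, with a level of 10.51 in the RANK+/+ RNA of pair 1. Both had their highest level in the RANK+/+ RNA of pair 1, as Axin2 did. Znrf3, a ubiquitin ligase that removes Frizzled receptors, also did, with ratios of -1.15, 0.65 and -0.16, as did the transcription factor Sp5, with ratios of -1.73, 0.46 and -0.94. The Sp5 signal cleared background well in 2 of 6 RANK-/- and 4 of 6 RANK+/+ channels, so its ratios are in part set against background signal. It passed the filter only through the RANK+/+ channel, so its direction was also in part set by the filter.

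Ratios of Nkd1, Apcdd1 and Znrf3 ran the other way in pair 2, at 0.48, 0.67 and 0.65. Tnfrsf19, also called Troy, had ratios of -2.48, 1.16 and -2.13. Mmp7, a matrix metalloproteinase, was the target gene that was at least 1.5-fold lower in all pairs, with ratios of -1.03, -1.03 and -0.65. The summed signal of the hair follicle and epidermis markers, carried by Tchh, Krt28 and Sbsn, was also highest in the RANK+/+ RNA of pair 1. The part of these markers in the Axin2 ratio of that pair was not tested.

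**Figure D4:**
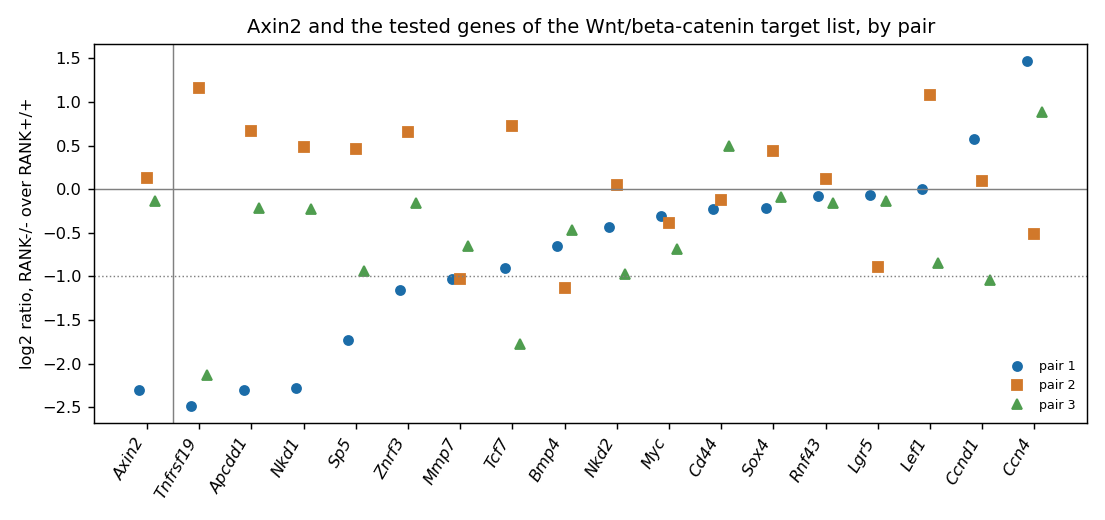
Log2 ratio of RANK-/- over RANK+/+ (y axis) by pair for Axin2, left of the vertical line, and the 17 tested genes of the target list in the order of their pair 1 ratio. The dotted line marks a 2-fold lower signal. In pair 1, Axin2 (-2.31) lies beside Tnfrsf19, Apcdd1 and Nkd1, and the pair 2 values of these 3 genes are above 0.

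The pathway outside the set was described over 92 genes, of which 74 were tested. By limma 0 of the 74 passed the threshold, and 5 had an unadjusted p under 0.05, beside 646 of the 22513 genes in all. In all 3 pairs 8 were below 0 and 3 above 0, beside 9.65% and 9.96% of all genes, and 2 were at least 1.5-fold lower and 0 at least 1.5-fold higher. Over all genes tested, 0.24% were at least 1.5-fold lower and 0.271% higher in all pairs. At least 2-fold lower were 10 of the 74 in pair 1 (13.5%, beside 2.84% of all genes), 7 in pair 2 (9.46%, beside 2.37%) and 6 in pair 3 (8.11%, beside 3.01%). The 10 in pair 1 included Sp5, which passed the filter on dim probes only through the RANK+/+ channel. At least 2-fold higher were 2, 5 and 4 of the 74 (2.70%, 6.76% and 5.41%), beside 3.66%, 2.45% and 4.91% of all genes.

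Among other secreted antagonists and their co-receptors 7 of 14 were tested. Sostdc1, which inhibits both Wnt and BMP signalling, had ratios of -2.80, -0.63 and -0.40, with its highest level, 9.62, in the RANK+/+ RNA of pair 1. Dkk1, the best-known Lrp6 antagonist, as well as Sost and Cer1, was well above background on 0 arrays.

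Among the ligands and the proteins for their release 13 of 21 were tested. Wnt6 was at least 1.5-fold lower in the channel labelled RANK-/- in all pairs, with ratios of -2.80, -0.61 and -0.80. Its level was 7.18, 6.43 and 6.54 in the RANK-/- RNAs and 9.98, 7.04 and 7.34 in the RANK+/+ RNAs, so that the RANK+/+ RNA of pair 1 again stood highest. Wnt10a had ratios of -2.68, -1.86 and 0.82. Wnt2, Wnt2b, Wnt3, Wnt3a and Wnt8b were well above background on 0 arrays.

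Receptors and cytoplasmic transducers had medians within 0.19 of 0 in every pair, though single receptors differed more. All 16 receptors and co-receptors were tested, with medians of -0.05, -0.02 and -0.19. The largest mean ratios among them were those of Fzd9 (2.79, 1.05 and -0.29) and of Ror2, a receptor for non-canonical ligands (-0.18, 0.23 and -1.98). The 10 cytoplasmic transducers and members of the destruction complex had medians of -0.01, -0.01 and 0.13, and 0 of them reached a 2-fold difference in any pair. The largest means there were 0.42 for Btrc and 0.30 for Dvl3. Of the 10 Tcf/Lef factors and co-activators, Tcf7 had ratios of -0.91, 0.72 and -1.77 and Bcl9 had -0.02, 0.26 and 0.79.

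R-spondins, secreted proteins that strengthen Wnt signalling by removing Znrf3 and Rnf43 from the cell surface, differed in sign between pairs. Rspo1 had ratios of -2.30, 0.96 and -2.38, the same signs as Tnfrsf19. Rspo3 had ratios of 0.09, 3.15 and -0.38, and its level was 9.50 in the RANK-/- RNA of pair 2 and 6.10 to 6.48 in the other 5. Its signal cleared background well in 3 of 6 RANK-/- and 4 of 6 RANK+/+ channels, so its ratios are in part set against background signal. Rspo2 and Rspo4 were well above background on 0 arrays.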

How the data were processed

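RNA of sorted CD45- cells was measured on 6 SurePrint G3 arrays in 2 colors (62976 spots). Scans were extracted by the authors with Agilent Feature Extraction 10.7.3.1. Their deposited tables hold the median spot intensity and local background intensity of each channel, not normalized, and processed intensity values. The deposited series table holds log2 ratios normalized by the authors. The methods describe base 2 logarithms of a condition over its control, and its centring is not stated. Its columns correlated with the RANK-/- over RANK+/+ ratios made here at r from 0.977 to 0.980, with slopes from 0.992 to 1.01 over bright probes, and had medians from -0.0076 to 0.0073. Arrays A and B have the same dye arrangement per the labels, although the methods of the study name dye swaps. A single slide and scan date served every array, so slide and scan could not be tested.

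Median signals were corrected by normexp (offset 50) in limma 3.58.1 (R 4.3.3, data.table version 1.17.8). After removal of 3671 control spots and of outlier spots, ratios were normalized by intensity loess and Aquantile, spots of a probe averaged, and arrays A and B averaged, giving 3 ratios. Pairing comes from hybridization of both RNAs to the same array. Probes were kept (30245) where one genotype's channel was well above background on arrays A and B in 2 or more pairs. The brightest probe stood for a gene, which left 22513 genes, 14683 of them with a RefSeq symbol (GRCm38.p6). The limma test (lmFit, eBayes) had an intercept only and was two-sided, with Benjamini-Hochberg adjustment. A rank product was run on the same ratios, with p from the gamma distribution. Both were tested on simulated data. An exact sign-flip test over 3 pairs cannot give a p below 0.25. The number of arrays limits the precision. All members and Tnfrsf11a were named, with pathway genes that changed 1.5-fold or more in one direction in every pair, the largest mean ratios of each pathway list, the 5 genes most like Wif1, and bright or undetected markers. Other genes named to describe a list were chosen after their values were seen. Members, gene lists and the naming rule were chosen with earlier results of these data known.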

Additional observations from a re-analysis of the deposited data

How the results depend on the processing

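Wif1 had a mean log2 ratio between -2.48 and -2.07 under the 16 alternatives that used all pairs. Leaving out a pair gave -2.62 to -2.02. Not all of the 16 could move this mean. The exact rank product, the changed filters, the mean over probes, the random block, the unpaired fit and robust eBayes leave it the same by construction. The pfp of Wif1, a description, was less stable. It rose to 0.0661 with a normexp offset of 16, 0.103 with Agilent's processed signals and 0.0644 with the series table. Without a pair it was 0.128 to 0.353. The mean of Sfrp2 turned to -0.050 with a dye term and ranged from -0.099 (without pair 2) to 1.03 (without pair 1); the cause was not tested. The mean of no other member changed sign. Signs by pair were less stable. Dkk3 with median centring and Notum with arrays B alone were also below 0 in all 3 pairs, and Sfrp1 with median centring was above 0 in all 3. Without a pair, Sfrp1 ranged from 0.35 (without pair 2) to 1.08 (without pair 1), Sfrp4 from 0.72 (without pair 3) to 1.89, Dkk2 from 0.046 (without pair 3) to 0.21, Dkk3 from -1.18 (without pair 3) to -0.26 (without pair 2), Notum from -0.23 (without pair 3) to -0.047 (without pair 2) and Axin2 from -1.22 (without pair 2) to -0.0034 (without pair 1). Processed signals moved Dkk2 to 0.50 and Axin2 to -1.39, and under the strict filter neither Axin2 nor Dkk2 was tested.

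Median centring moved the median of all genes to -0.14, and Notum to -0.34. Genes called by limma stayed at 0, also without any pair (0 to 0), except for 13 with the 6 arrays and the pair as a random block, and 7 were called by the rank product in its place. The rank product called 5 genes lower with processed signals, 5 with median centring, 6 with the series table and 11 with no filter on dim probes, where 12 were higher. With the exact distribution of the rank product, chosen after seeing the data, 9 were lower and 10 higher. Leaving out pair 1, 2 or 3 gave 1, 3 and 0 lower and 1, 2 and 0 higher. The causes of these shifts were not tested. Of the pathway genes outside the set 0 passed limma in any alternative.

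Without the pairing, with the channels as separate samples and no replicate block, limma called 0 genes. The mean ratio of Wif1 in that fit, -2.25, equals the paired mean by arithmetic and could not change. Channels of a pair deviated from their genotype means with correlations of -0.03, -0.22 and -0.04. Signal near background limits Frzb, which was not tested, and Axin2 and Dkk2.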
